A study of Drosophila melanogaster with 3 samples.

Results

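The regions described here are the places on the X chromosome of Drosophila melanogaster S2 cells at which binding of Yorkie (Yki) was listed. All intervals of the deposited peak list on X were taken, 375 of 3990 in the whole list, with no selection on height or width. S2 is an established cell line of embryonic origin, grown here in Schneider's medium and fixed with formaldehyde. The ChIP group held 2 libraries precipitated with an antibody against Yki, and the input group held 1 library made from the same line without antibody; no genotype, treatment or time differed between them. The deposited list and the deposited density track were each taken to pool both ChIP libraries, with input subtracted in the track. No value therefore has a replicate error, no depth per library is known, and the differences described were not tested. Intervals given for counts, shares and medians are exact 95% intervals that cover counting error and treat neighbouring peaks as independent.

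Yki is the transcriptional coactivator through which the Hippo pathway controls growth. It does not bind DNA by itself and is carried there by partner proteins such as Scalloped. The X chromosome of Drosophila is a single long arm with its telomere at the low coordinates, here called distal, and its centromere at the high coordinates, here called proximal. S2 cells are male in character, and in male cells the MSL dosage compensation complex coats active genes of X and raises their transcription. Coordinates follow dm3. Neither genes nor DNA sequence of that build were used here, so regions are named by position, and no gene, promoter or motif is assigned to them.

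The density score has a readable scale on X. Isolated bumps, from which the score returned to 0 on both sides, had a most frequent sum of 4.98 above 0 (13 of 42 bumps) and of 1.80 below it (7 of 20 bumps). The highest sample of the 13 bumps lay between 0.972 and 0.997, so a single ChIP tag was read as a bump with a height of 1 at its centre. The 7 bumps below 0 were 0.353 to 0.362 deep, which was read as the weight of 1 input tag. A bump of a single tag is 460 bp wide at 50% of its height. On this reading the median X peak held a net 129 tag equivalents, and its height of 152 carried a counting SD of at least 10.4.

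Yki peaks were most frequent in the distal and middle parts of X and sparse in the proximal part. X was divided into equal parts of 7.47 Mb. The distal part held 142 peaks, or 19.01 per Mb (16.01 to 22.4), and the middle part held 152, or 20.3 per Mb (17.2 to 23.8). The proximal part held 81, or 10.8 per Mb (8.61 to 13.5), a counting interval that does not overlap those of the other parts. These intervals treat peaks as independent, whereas 36.1% of neighbouring X peaks lay under 5 kb apart. They are therefore too narrow for grouped peaks, and the difference between the parts was not tested. Samples listed at 0, read as places with no tag nearby, made up 4.41% of the distal, 2.87% of the middle and 6.31% of the proximal part. The samples inside listed peaks made up 0.906% of X and 2.21% of the 4 large autosome arms.

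Tall peaks were most numerous in the distal part. Of the 52 X peaks that reached 300, 27 were among its 142 peaks. The middle part had 14 among 152 and the proximal part 11 among 81, so the lowest share was in the middle part. The stretch from 2 to 4 Mb alone held 16 of the 27 in the distal part. The median height differed little along the arm, at 158 in the distal, 152 in the middle and 149 in the proximal part. Median widths were also close, at 458, 437 and 441 bp in the same order. The parts thus differed more in their tallest peaks than in their typical ones.

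In windows of 1 Mb the numbers moved up and down along the arm rather than falling steadily. The 21 windows covered in full held 17.5 ± 9.34 peaks (SD over windows), from 7 to 36. The windows at 3 to 4 Mb and at 12 to 13 Mb held most, with 36 peaks each (25.2 to 49.8). The window at 2 to 3 Mb followed with 32 (21.9 to 45.2) and the one at 7 to 8 Mb with 31 (21.1 to 44.0). These 4 windows held 135 peaks, 36.0% of those on X. The fewest in a full window were 7 (2.81 to 14.4), at 4 to 5 Mb and at 15 to 16 Mb, and the first window, sampled from 8775, also held 7. The last window, which ends at 22422310, held 1. The change from 36 peaks at 3 to 4 Mb to 7 at 4 to 5 Mb was the sharpest between neighbours. The counting intervals of that pair do not overlap, but they too are too narrow for grouped peaks.

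The 4 rich windows did not look alike. At 3 to 4 Mb, 12 of 36 peaks reached 300 and the median height was 185. At 12 to 13 Mb only 3 of 36 did, and the median was 131. At 7 to 8 Mb the median height was the highest of any full window, 212, yet its tallest peak was 415 and 4 peaks reached 300. Over the 21 full windows, peak number and the median absolute deviation of the samples more than 1 kb from any peak had a Spearman rho of 0.13. Windows share libraries and borders, so this is a description of the track. That spread was widest, 16.7, at 1 to 2 Mb and narrowest, 3.94, at 21 to 22 Mb, where 23.6% of the samples were at 0.

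**Figure D1:**
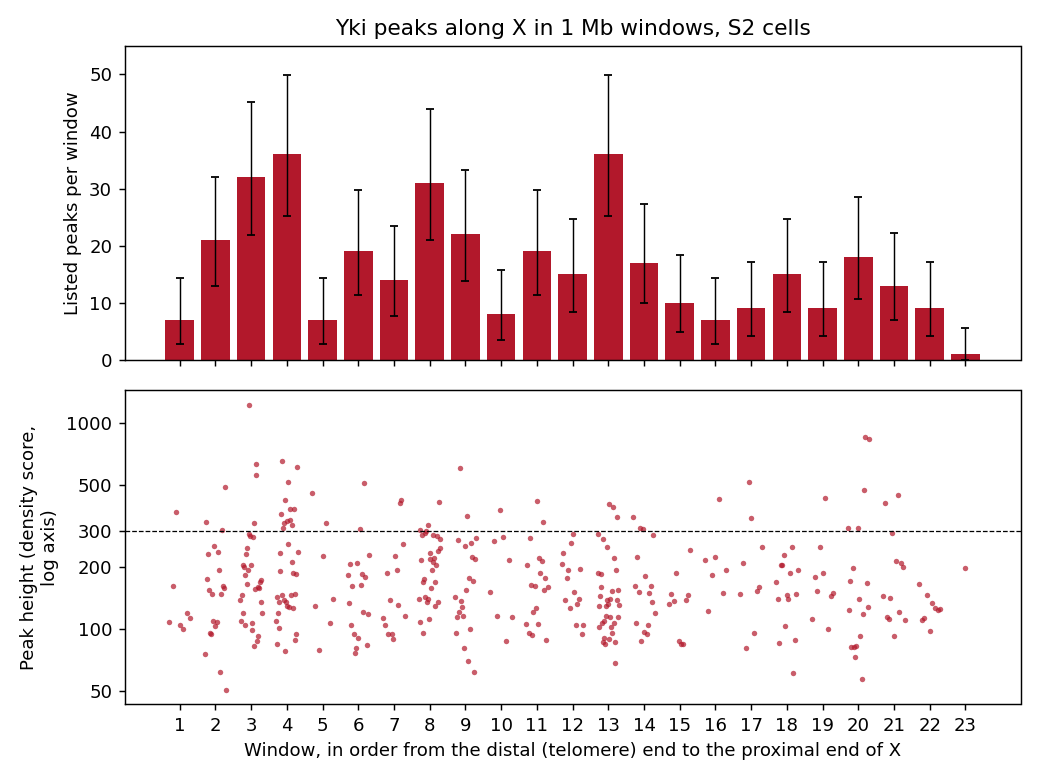
Number of listed peaks (upper panel, bars with exact 95% Poisson intervals) and height of each peak (lower panel, 1 point a peak, log axis, dashed line at 300) in 23 windows of 1 Mb, ordered from the distal to the proximal end of X. The fourth and thirteenth windows hold 36 peaks each, and 12 of the 36 in the fourth lie at or above the dashed line, against 3 in the thirteenth.

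The stretch from 2 to 4 Mb stood out most. It makes up 8.92% of X and held 68 peaks (18.1%) and 5 of the 13 groups of 5 or more peaks. It also held 16 of the 52 peaks that reached 300 and 6 of the 10 highest peaks. Of those 16, 12 were among the 36 peaks at 3 to 4 Mb and 4 among the 32 at 2 to 3 Mb. The highest peak of X, at 2211350 to 2212012, lay in this stretch. It reached 1232 (counting SD at least 29.5) over a flank of 6.51, the mean density 2 to 5 kb from its edges with samples inside other peaks left out. Its width at 50% of its height was 533 bp, near that of a single tag, and its nearest neighbour was 11.6 kb away.

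The other 5 of the 10 highest peaks that lay in this stretch each had neighbours within 10 kb. At 3570696 to 3572623 a peak of 655 spanned 1928 bp, was 1649 bp wide at 50% of its height and held a net 1768 tag equivalents, more than the highest peak with 1231. At 2536366 to 2537337 a peak of 637 had a peak of 559 beside it, at 2539685 to 2541093. The peak at 3762308 to 3763039 reached 613, with a flank of -13.8. The peak at 3634672 to 3635330 reached 516. These values show a mixture of sharp and extended signal: the highest peak was narrow, while the one with most tags was a plateau.

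Outside that stretch lay 4 of the 10 highest peaks. Those at 19760309 to 19760908 and 19780506 to 19782088, within 50 kb of each other, reached 857 and 842. The peak at 8315062 to 8315646 reached 604 and belonged to a group of 4. The peak at 16110643 to 16111874 reached 519 and was the most isolated of the 10, with its nearest neighbour 66.5 kb away. Together the 10 highest peaks held 12.7% of the density summed over X peaks, and the 52 peaks of 300 or more held 41.3%.

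The second highest X peak stood between troughs, where input outweighed ChIP. It reached 857, and within 10 kb the density was as low as -547 on the distal side and -513 on the proximal side, a difference of 1404 from the highest to the lowest sample. Its flank of -360 was the lowest of any X peak; 3 X peaks in all had a flank under -50, and the other 2 were at 19744880 to 19745670 (-110) and at 2528355 to 2528695 (-83.9). With this peak itself counted, 7 peaks lay within 50 kb, with heights from 56.9 to 857. Of the 9 troughs on X that fell to -200 or lower, 5 lay within 50 kb of this peak and 7 lay between 19 and 21 Mb. The heights of this peak and of the one at 19744880 thus rest on a local level far below 0, and the part of input in them was not tested. The other peaks within 50 kb had flanks from -35.4 to 38.2, the latter beside the peak of 842.

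The lowest listed X peaks were faint. The peak at 1996258 to 1996548 reached 50.4 over a flank of 6.12 and held a net 28.1 tag equivalents. The peak at 19741560 to 19741763 reached 56.9 and lay 0.79 kb from its neighbour, midpoint to midpoint. In all, 61 X peaks (16.3%) were lower than 100, against 27.4% on the 4 large autosome arms. X also had the smaller share of tall peaks. Those that reached 300 made up 13.9% of X peaks (10.5% to 17.8%). Of autosome peaks 17.7% did (16.4% to 18.9%), and these intervals overlap. The 95th percentile of height was 420 for X and 616 for the autosome arms. Limits of height were the same for X and the autosome arms, without adjustment for the copies of each in the cells. What this does to differences in height and in listing was not tested.

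Peaks rose sharply from their surroundings. With other peaks left out, the median density was 152 at the highest sample, 54.7 and 55.8 at 0.5 kb on the distal and proximal side, 25.5 and 23.4 at 1 kb, and 8.66 and 9.93 at 5 kb. On the 4 large autosome arms the same medians were 132 at the highest sample, 58.4 and 57.9 at 0.5 kb, 30.7 and 30.6 at 1 kb, and 10.9 and 11.8 at 5 kb. All 375 X peaks had a mean density above their flank, and the median difference was 132. List and track come from the same libraries, so this is not independent evidence for the peaks.

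Typical widths on X and on the autosomes were alike, and the wide end differed. The median width was 446 bp on X (411 to 466) and 449 bp on the 4 large autosome arms (437 to 463). Peaks of at least 1 kb made up 8.27% of X peaks (31 peaks, 5.69% to 11.5%) and 13.8% of autosome peaks (12.7% to 14.98%). On the single autosome arms this share ran from 12.3% on 3L to 15.7% on 3R. Peaks of at least 2 kb numbered 2 on X, and 66 on the autosome arms (1.85%). The widest X peak spanned 2035 bp, whereas the widest on the autosome arms spanned 3369 bp on 2L, 3660 bp on 2R, 5779 bp on 3L and 5001 bp on 3R.

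The 5 widest X peaks all reached 300. Over all X peaks height and width rose together, with a Spearman rho of 0.78, against 0.79 on the 4 large autosome arms. Both peaks over 2 kb, at 12628469 to 12630503 and at 12607565 to 12609576, belonged to 1 group; they reached 391 and 404. The third in width was the plateau of 655 described above. The peaks at 7193683 to 7195595 (1913 bp) and at 9478201 to 9480091 (1891 bp) reached 304 and 380, and the last of these was 55.9 kb from its nearest neighbour. In 4 of 5 bands of height, X peaks had the smaller median width. Among peaks of 100 to 150 the median width was 343 bp on X and 388 bp on the autosome arms, and among peaks of 300 or more it was 822 and 962 bp in the same order. Below 100 it was 282 and 268.5 bp.

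**Figure D2:**
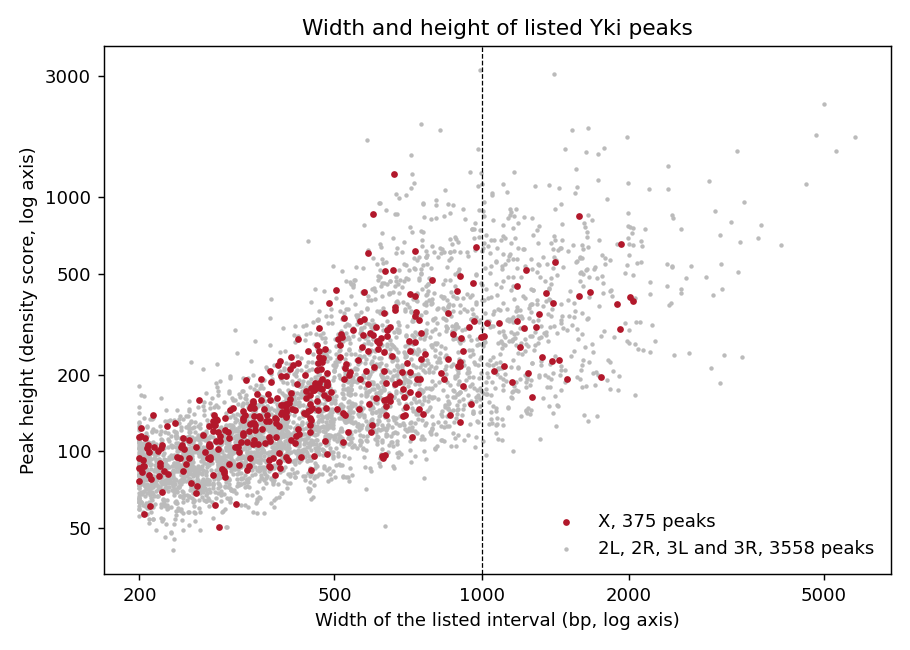
Width of the listed interval (bp) against height (density score), both on log axes, for 375 X peaks and 3558 peaks of the 4 large autosome arms; the dashed line marks 1000 bp. X peaks follow the autosome peaks at small widths, 31 lie at or beyond the line, and the widest X peak ends at 2035 bp.

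Distances between neighbouring X peaks covered a wide range. Of 374 neighbouring pairs, 89 had midpoints under 2 kb apart, 78 were 2 to 10 kb apart, 137 were 10 to 100 kb apart and 70 were over 100 kb apart. The median distance was 13987 bp, with quartiles of 2170.5 and 59014 bp. On the 4 large autosome arms the median was 6997 bp, with quartiles of 1760 and 27950 bp. The lower quartiles thus lay closer than the upper ones. Pairs under 5 kb apart made up 36.1% on X (31.2% to 41.2%), and 49.2% on 2L, 39.5% on 2R, 43.5% on 3L and 43.4% on 3R. The X interval overlaps that of 2R (36.1% to 43.02%). Since X holds fewer peaks per Mb, longer distances follow in part from their number, and that part was not separated here.

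**Figure D3:**
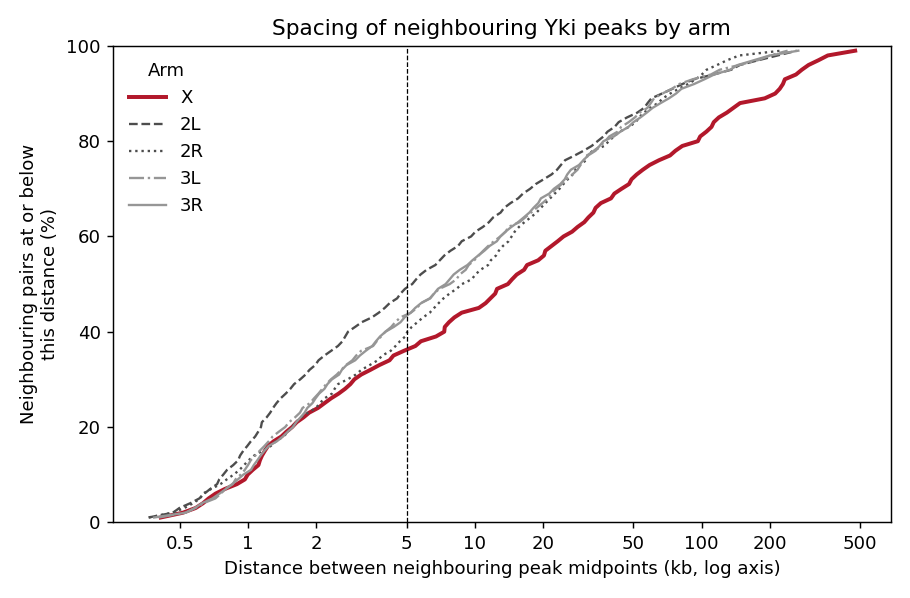
Share of neighbouring pairs (%) at or below a given midpoint distance (kb, log axis) for X and the arms 2L, 2R, 3L and 3R, drawn from the 1st to the 99th percentile; the dashed line marks 5 kb. Up to about 2 kb the X curve runs beside those of 2R, 3L and 3R, with 2L mostly to their left. From there on it lies to the right of all others, and its longest distance, 724 kb, is beyond the part drawn.

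Between the closest pairs on X the density stayed high. In 49 pairs (13.1%, 9.85% to 16.9%) the edges were 500 bp or less apart, against 16.7% on the 4 large autosome arms (15.4% to 17.9%). A sample fell between the edges in 46 of the X pairs. There the lowest density was a median 93.4% of the height of the lower peak, with quartiles of 74.3% and 104%, and it was below 0 in 0 pairs. On the autosome arms the median was 95.7% over 557 pairs. With such pairs joined, X had 326 separate regions.

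Chaining peaks with midpoints less than 10 kb apart gave 208 X groups. Single peaks numbered 139, or 37.1% of X peaks (32.2% to 42.2%), against 23.9% of peaks on the autosome arms (22.5% to 25.3%). There were 35 pairs, 14 groups of 3 and 7 of 4. The 13 groups of 5 or more held 96 peaks, 25.6% (21.3% to 30.3%), against 34.1% on the autosome arms (32.6% to 35.7%), where the largest group had 38. Of these 13, 6 lay in the distal part of X, 5 in the middle and 2 in the proximal part, and together they spanned 237 kb. With fewer peaks per Mb on X, more single peaks and fewer large groups follow in part from their number. That part was not separated here.

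The largest X group held 15 peaks over 52.0 kb, from 12607565 to 12659558. Its 3 peaks above 300 were spread over it: the first interval of the group reached 404, the one at 12628469 reached 391 and the one at 12647612 to 12648464 reached 352. The other 12 ran from 68.5 to 220. Between the peaks the density had a median of 45.9, and it fell no lower than -65.1. A second group of 8 peaks lay 45.4 kb away on the distal side, at 12548270 to 12562123, with a highest peak of only 249. The last peak of the largest group was followed by 322 kb without a listed peak.

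Other groups differed in how tightly their peaks were packed. The group of 10 at 7586284 to 7604321 spanned 18.0 kb, had heights from 111 to 321, and its density never fell below 11.9. The group of 7 at 3667186 to 3675267 was the densest of those with most peaks: intervals filled 59.1% of its 8.08 kb, the density fell no lower than 55.9, and the heights ran from 126 to 383. The group of 9 at 3566065 to 3598650 filled 23.3% of 32.6 kb and had the highest median height of the groups of 7 or more, 309, with 5 peaks above 300. The group of 8 at 2528355 to 2552909 held the peaks of 637 and 559, its median height was 159, and the density between its peaks had a median of 16.5. The group of 7 at 2186856 to 2200366, 11.0 kb from the highest X peak, reached 288. In these groups the space between peaks was raised above 0 in the median, from 16.5 to 87.1.

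With height counted from 0, peaks in X groups of 5 or more were somewhat taller than single ones. Their median height was 166 (145 to 204), against 152 for single X peaks (139 to 178), and 21 of 96 reached 300, against 18 of 139. The median intervals overlap. On the 4 large autosome arms the medians ran the other way, 127 for peaks in groups of 5 or more and 135 for single peaks, with intervals of 122 to 134 and 129 to 144. The flanks of grouped X peaks were raised, with a median of 32.0, against 1.40 beside single peaks, and so were those on the autosome arms, with 29.3 against -0.47. On X these median flanks differed by more than the median heights did. The greater height of grouped X peaks is thus not a greater height above their surroundings, which was not compared. The difference in height between X and the autosomes was not tested.

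**Figure D4:**
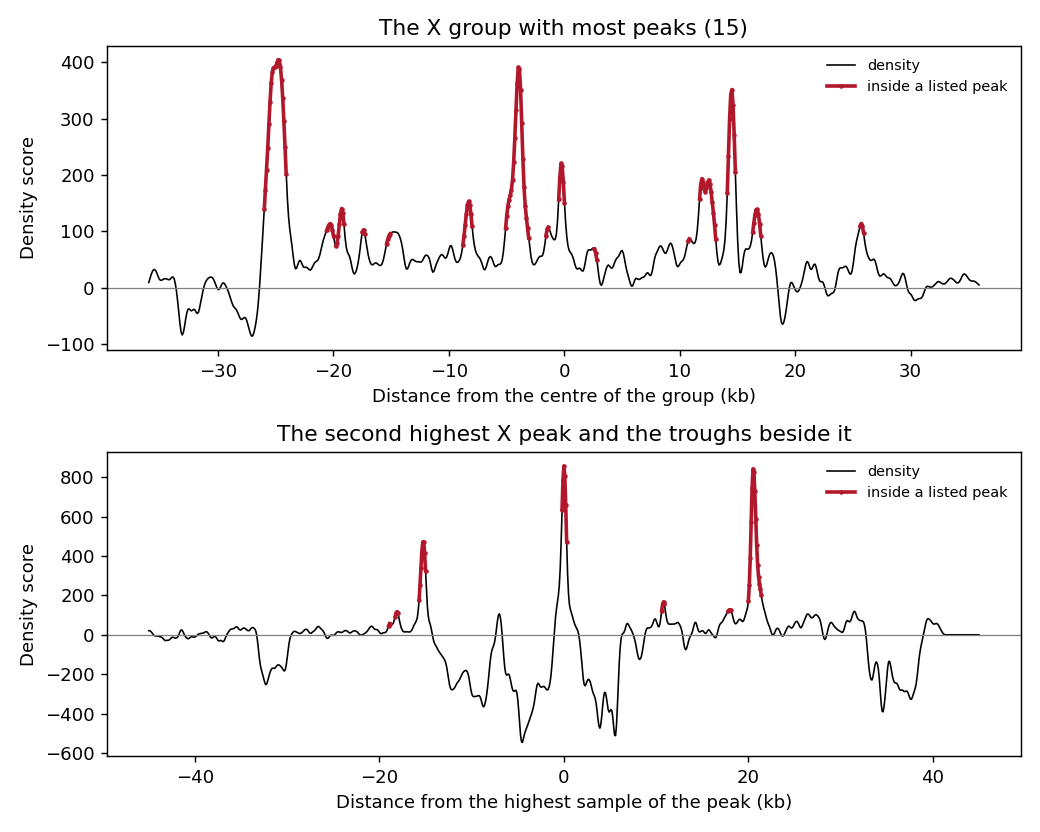
Density score against distance (kb) around the X group with most peaks (upper panel) and around the second highest X peak (lower panel); red parts are samples inside listed peaks and the grey line marks 0. In the upper panel 3 of 15 peaks exceed 300 and the ground between them stays mostly above 0; in the lower panel the peak of 857 stands between troughs of -547 and -513.

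Most of X lay in long stretches without a listed peak. There were 69 stretches of at least 100 kb between neighbouring intervals, which summed to 16.2 Mb or 72.3% of X. On the 4 large autosome arms 243 such stretches summed to 45.1% of their length, from 37.4% on 2R to 49.7% on 2L. Fewer peaks per Mb on X lengthen such stretches too, and that part was not separated here. On X, 15 stretches exceeded 300 kb. Beyond the outermost peaks, a further 384 kb at the distal end and 165 kb at the proximal end had none.

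The longest peak-free stretch on X ran for 724 kb from 14106489 to 14830498. Next were 643 kb from 21246829, 572 kb from 9588198 to 10159811 and 549 kb from 11815399 to 12364213. Stretches of 449 kb from 4511676, 374 kb from 3844367, 371 kb from 20528653 and 364 kb from 21893410 followed. The stretch from 3844367 lay between single peaks of 236 and 460. The one from 11815399 ended at a group of 4 peaks with heights of 290, 186, 129 and 102 in order along X. Toward the proximal end the stretch of 643 kb followed a group of 5 peaks that ended at 21246828, then came 3 peaks of 127, 123 and 125 at 21889821 to 21893409, then the stretch of 364 kb, and last a single peak of 198 at 22256990 to 22257388.

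These stretches were measured, and their density lay near 0. Over all 69 the median was 0.0, the median absolute deviation was 9.39 and 48.5% of samples were above 0. In the other samples outside peaks the median was 3.83, the deviation 12.5 and the share above 0 59.3%. A median stretch had 3.07% of its samples at 0. The highest share was in the stretch of 643 kb, with 33.5% of samples at 0, of which an unbroken run of 77.4 kb from 21684692 is the longest on X. The stretches from 20068117 (18.8%) and from 19782089 (16.3%) came next. At least 1 kb from any peak, 8 of the 69 stretches held a run of samples that reached 100, and the highest value was 435 in 1 stretch and at most 119.7 in the others.

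The run of 435 was as tall as the tall listed peaks and overlapped no listed peak. It lay at 21468442 to 21469241, inside the stretch of 643 kb and 222 kb from the nearest listed peak. It reached 435, so that only 15 of the 375 listed X peaks were higher, with a flank of -4.35. It held a net 422 tag equivalents, and its width at 50% of its height was 478 bp, close to the 460 bp of a single tag. Within 50 kb of it 23.6% of samples were at 0.

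Apart from it, listing on X followed height closely. The samples at or above the median X peak height made up 0.497% of X, 1113 in number, and 67 of them (6.02%) lay outside listed peaks. Runs of samples at 50 or more were taken whole and sorted by their highest value. Of those that reached 50 to 75, 6 of 341 overlapped a listed peak (1.76%, 0.65% to 3.79%). From 75 to 100 it was 38 of 110 (34.5%, 25.7% to 44.2%), and from 100 to 125 it was 44 of 56 (78.6%, 65.6% to 88.4%). From 125 to 300 all 159 runs did, and above 300 it was 49 of 50.

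The autosome arms followed the same course, but with unlisted runs in every band up to 300. At 300 or more all 583 autosome runs were listed. From 75 to 100, 38.4% of 1202 runs were listed (35.7% to 41.3%), and from 100 to 125, 79.1% of 597 (75.6% to 82.3%), both within the X intervals. From 125 to 150, 32 of 349 were unlisted, against 0 of 42 on X, which allows a share listed as low as 91.6% there. From 50 to 75, 6.33% were listed (5.46% to 7.29%), above the X interval. Unlisted autosome runs of 125 to 150 lay over flanks with a median of -23.7, against 4.63 for listed ones. On X the flanks of unlisted and listed runs of 100 to 125 were 0.50 and 1.37.

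**Figure D5:**
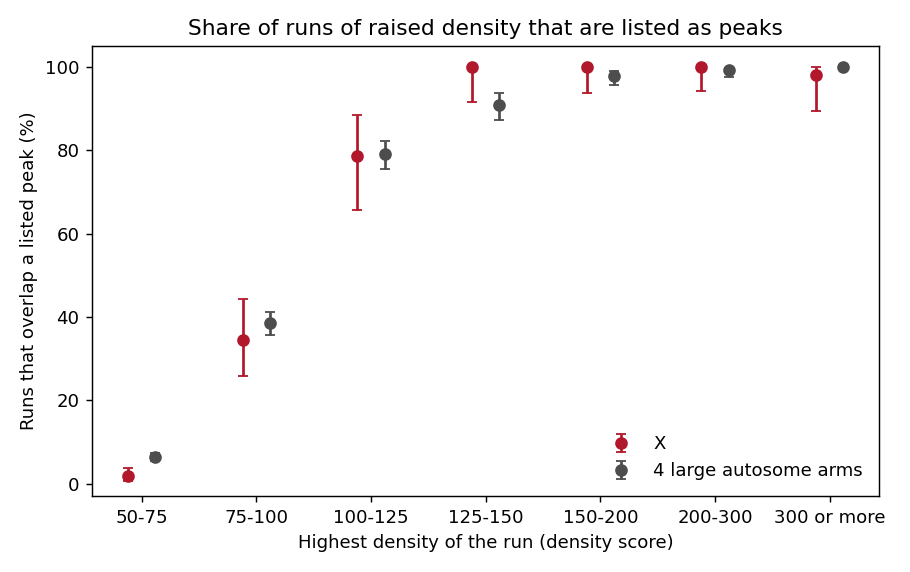
Share (%) of runs of density that overlap a listed peak, by the highest density of the run, for X and the 4 large autosome arms, with exact 95% binomial intervals. The share climbs from 1.76% on X for runs of 50 to 75 to 78.6% for runs of 100 to 125, and the single unlisted X run above 300 is the one that reached 435.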

How the data were processed

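Yki ChIP (2 libraries) and input (1 library) of S2 cells were grouped by sample title; their description fields instead name embryo material (GAF for the ChIP libraries, Yki for the input) and were not followed. Per the submitters' processing notes the build is dm3 and the tools are CASAVA 1.7.0, BWA and Bowtie; the sources used here state neither their roles nor the peak caller. The deposited list gives start and end of each interval, without height, p-value or library. The authors also deposited a density score for each 100 bp, smoothed and background-subtracted per the file header; its library codes match no sample label and were taken to be the 3 libraries, with the ChIP libraries pooled.

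Starts were raised by 1. Height was the highest sample whose centre lay in the interval; flanks lay 2 to 5 kb from the edges without samples of other peaks. Bumps of at most 17 samples between samples within 0.001 of 0 gave the tag scale (sums within 2% of the mode). The counting SD is the square root of height over the square root of 2, a lower bound. Poisson and binomial intervals are exact, those of medians from order statistics. Nothing was tested, since no value exists per library. Tags carry no molecular identifiers, so intervals cover counting error only. Python 3.11.15, numpy 2.4.6, pandas 2.3.3, scipy 1.17.1 and matplotlib 3.10.9 were used.

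The chromosome, the measures and the named regions were chosen with earlier results of these data known. Named were the 10 highest and 5 widest peaks, the groups with most peaks (7, because of a tie), the 8 longest peak-free stretches, the richest and poorest windows and the highest unlisted run; the next 2 of these runs reached 119.7 and 107. The 2 to 4 Mb stretch, the lowest peaks, the peaks beside peak-free stretches, the surroundings of the second highest peak, and the bands of height were singled out after their values were seen.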

Additional observations from a re-analysis of the deposited data

How the results depend on the processing

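Of 24 alternatives to 8 values, 9 stayed within the counting interval of the value, or for counts within 1.5 times it, and 15 did not. With pairs 500 bp or less apart joined, which left 326 peaks, neighbours under 5 kb apart made up 25.2% and groups of 5 or more held 17.8% of X peaks. Taking the 188 peaks at or above the median X height gave 24.6% and 13.3% for these, and a median width of 612.5 bp. Counting neighbours under 10 kb apart gave 44.7%. Chaining over 5 kb gave 17.9% of peaks in groups of 5 or more and over 20 kb gave 39.5%. Stretches of at least 200 kb without a peak numbered 40. The distal 50% of X held 57.9% of its peaks, against 37.9% in the distal part of 7.47 Mb. Median height was 138 with the mean density in place of the highest. The median difference of peak from flank was 141 with flanks 5 to 10 kb away and 145 with the highest density. Samples at or above the median X height outside peaks numbered 6 with peaks widened by 500 bp, all in the run that reached 435, and 13 at 1.5 times that height. Larger distances, parts or limits fix the direction of these changes; for the other changes no cause was tested. No value exists without 1 or the other ChIP library. No paired analysis was possible because list and track pool the libraries. Without tag totals for each library, what the depth could miss is unknown.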

Other observations

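A pair of X windows had density below 0 outside peaks more often than the other full windows. Their numbers of peaks lay on either side of 15, the median of the full windows. In the window at 1 to 2 Mb the median density more than 1 kb from any peak was -11.7, 29.7% of those samples were above 0, and 21 peaks were listed. In the window at 18 to 19 Mb the median was -7.52, 30.01% of samples were above 0, and 9 peaks were listed. In the other full windows the share above 0 ran from 39.7% to 62.7%. The part of input in these windows was not tested.

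Troughs on X, stretches at or below -100, numbered 136, and 49 of them (36.0%) had their lowest sample within 10 kb of the edge of a listed peak. Samples within 10 kb of a peak made up 19.96% of X.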
